A study of Homo sapiens with 6 samples.

Results

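The genes described here are the nuclear genes of the mitochondrial ribosome, of protein import into mitochondria and of mitochondrial shape, protein quality control and DNA maintenance. Members were chosen by gene symbol: MRPL and MRPS genes, TIMM and TOMM genes, SAMM50, MFN1, MFN2, OPA1, OPA3, MFF, FIS1, DNM1L, the CHCHD genes, the prohibitins, LONP1, CLPP, CLPX, TFAM, POLG and POLG2. Of the 7681 genes in the authors' 2 tables, 57 were members. RefSeq annotates 126 protein-coding genes under these names, so 45.2% of the family was listed, against 37.9% of all 20052 RefSeq protein-coding genes. The other 69 were in neither table, which can mean that they missed the authors' threshold, were not detected or are not analysed here. The 20052 genes are annotated and not known to have been tested. A share listed, here and below, is therefore not a measure of enrichment.

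The mitochondrial ribosome translates the few proteins encoded by mitochondrial DNA, which are core subunits of the respiratory chain. Its own proteins are made in the cytosol and, like nearly all mitochondrial proteins, enter through the TOM channel of the outer membrane and a TIM channel of the inner membrane. Mitochondria also fuse and divide, and the balance is set by membrane GTPases such as mitofusins, OPA1 and DNM1L.

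The study compared 3 cultures labelled Rab27B KO, whose labels state that RAB27B was deleted by CRISPR/Cas9, with 3 cultures labelled wild type. All were the human colorectal carcinoma line HCT116, untreated, grown for 48 hours and called biological replicates by the submitters. Whether the edited line is 1 clone is not stated in the labels. The authors' 2 tables give, for each listed gene, a log2 fold change, with Rab27B KO over wild type, and a q-value below 0.05, with no value per culture. The spread between cultures and the read depth are therefore unknown, no error can be attached to a fold change, and each direction rests on the authors' own test. RAB27B itself was 36.7-fold higher in the cultures labelled Rab27B KO by the authors' deposited table, which goes against the label, so every direction below is that of the cultures so labelled. Protein was not measured.

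Most listed members were higher, by small amounts. Of the 57 members 39 were higher and 18 lower in the cultures labelled Rab27B KO, so 68.4% were higher, against 50.7% of all 7681 listed genes. The median log2 fold change of the listed members was 0.19, beside 0.12 for all listed genes. Sizes were modest: the median absolute log2 fold change was 0.25 for members and 0.41 for all listed genes. An absolute log2 change of at least 0.5 was reached by 6 of the 57 members, a smaller share than the 38.7% of all listed genes. A change of at least 1 was reached by 2 of the 57 members, again a smaller share than the 12.6% of all listed genes. At a q-value below 0.01 there were 44 of the 57 members, also a smaller share than the 84.9% of all listed genes. The 2 with the largest changes were TIMM50 and TIMM17B, both parts of the inner-membrane import channel and opposite in direction.

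**Figure D1:**
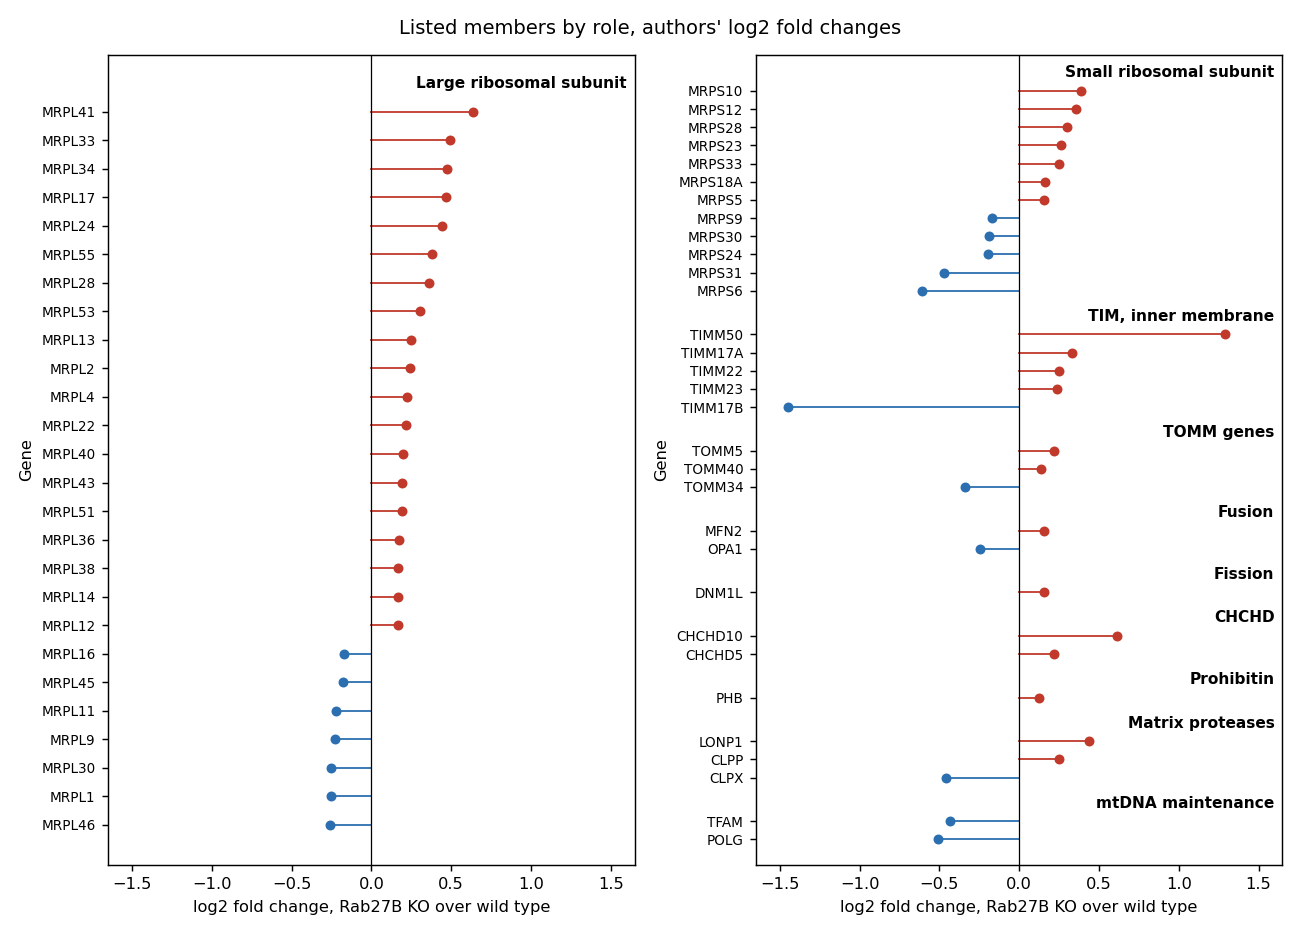
Log2 fold change, Rab27B KO over wild type (x axis) for each of the 57 listed members (y axis), grouped by role, with red for higher and blue for lower; the values are the authors' and carry no error. Large-subunit genes lie within -0.26 and 0.64, whereas TIMM50 at 1.29 and TIMM17B at -1.45 stand outside the range of the other members.

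Among large-subunit genes of the ribosome, 26 of 49 MRPL genes were listed (53.1%, beside 37.9% of all protein-coding genes), 19 higher and 7 lower. Thus 73.1% were higher, beside 50.7% of all listed genes, with a median log2 fold change of 0.20. These genes are short, with a median transcript of 1341.5 bases. Of all listed genes of 1162 to 1588 bases, a range around that median, 72.4% were higher. The share was 82.2% at 518 to 1086 bases and 52.8% at 1605 to 5621 bases. The part of length in the large subunit's share was not tested. MRPL41, a large-subunit protein with no bacterial counterpart, had the largest value, a log2 fold change of 0.64 (q = 7.33e-15) by the authors' deposited table, or 1.56-fold. Next by the authors' deposited table came MRPL33 at a log2 fold change of 0.49 (q = 1.83e-05), MRPL34 at 0.48 (q = 3.04e-14) and MRPL17 at 0.47 (q = 1.49e-13), which all have bacterial counterparts. MRPL24 (0.44), MRPL55 (0.38), MRPL28 (0.36) and MRPL53 (0.30) followed on the same log2 scale by the authors' deposited table. The other 11 higher MRPL genes lay between 0.17 for MRPL12, which also binds the mitochondrial RNA polymerase, and 0.25 for MRPL13 by the authors' deposited table.

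The 7 lower large-subunit genes formed a narrow band. MRPL46, a protein of the central protuberance, had a log2 fold change of -0.26 (q = 0.0277) and MRPL1, of the L1 stalk, one of -0.25 (q = 0.0117) by the authors' deposited table. MRPL30 was at a log2 fold change of -0.25 (q = 1.99e-05) and MRPL9 at -0.23 (q = 0.00107) by the authors' deposited table. MRPL11, of the stalk base where translation factors bind, was at -0.22, and MRPL45, which lies near the exit tunnel, at -0.17 on that scale by the authors' deposited table. MRPL16 was also at -0.17 by the authors' deposited table. The deepest of these falls was thus smaller in size than the 8 largest rises of the large subunit.

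Small-subunit genes were listed in both directions. Of 28 MRPS genes 12 were listed (42.9%, beside 37.9% of all protein-coding genes). Of these 7 were higher and 5 lower (58.3% higher, beside 50.7% of all listed genes), with a median log2 fold change of 0.16. At a q-value below 0.01 the balance turned round, with 3 higher and 4 lower. The difference between the subunits was not tested. MRPS10 was 1.31-fold (q = 1.32e-09) and MRPS12, a protein of the decoding centre, 1.28-fold higher (q = 1.96e-08) by the authors' deposited table. MRPS28 and MRPS23 had log2 fold changes of 0.30 (q = 0.0310) and 0.26 (q = 9.96e-05) by the authors' deposited table. MRPS33 (0.25), MRPS18A (0.16) and MRPS5 (0.16) were the other higher members on the log2 scale of the authors' deposited table. The falls here reached further than in the large subunit. MRPS6 had a log2 fold change of -0.61 (q = 5.78e-13), or 1.53-fold lower, and MRPS31 one of -0.47 (q = 2.21e-05) by the authors' deposited table. MRPS24 (-0.20), MRPS30 (-0.19) and MRPS9 (-0.17) were lower by less on the log2 scale of the authors' deposited table.

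Names do not place every protein in its subunit. In the human mitoribosome MRPS30 and MRPS18A sit in the large subunit, while DAP3, AURKAIP1, PTCD3 and CHCHD1 are small-subunit proteins. Counted by place, the large subunit had 28 of 52 genes listed, 20 higher and 8 lower, and the small subunit 13 of 30, 8 higher and 5 lower. The median log2 fold changes by place were 0.19 and 0.25, so the order of the subunits' medians turned round while the order of their shares of higher genes, 71.4% and 61.5%, was kept. Of the 4 ribosomal genes under other names 3 were listed. DAP3, a GTP-binding small-subunit protein, and AURKAIP1 had log2 fold changes of 0.36 (q = 8.20e-13) and 0.37 (q = 3.47e-10), and PTCD3 one of -0.23 (q = 1.75e-05) by the authors' deposited table. Proteins with and without a bacterial counterpart were also counted apart. Of the large-subunit proteins by place with a bacterial counterpart 13 of 18 listed genes were higher, and of those without one 7 of 10. For the small subunit these counts were 4 of 7 and 4 of 6.

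Import genes held the largest changes in both directions. Of 26 import genes 8 were listed, 6 higher and 2 lower, or 75.0% higher, beside 50.7% of all listed genes. TIMM50, the receptor of the TIM23 complex that takes over presequence proteins from the outer membrane, was 2.44-fold higher (q = 6.21e-245) by the authors' deposited table. By q-value it ranked 28 among the 7681 listed genes. TIMM17B, 1 of 2 alternative channel subunits of the same complex, was 2.73-fold lower (q = 1.13e-38) by the authors' deposited table. Its paralog TIMM17A was 1.26-fold higher (q = 3.32e-07) by the authors' deposited table. The pore protein TIMM23 and TIMM22, the channel for carrier proteins, had log2 fold changes of 0.24 (q = 3.53e-05) and 0.25 (q = 0.00369) by the authors' deposited table. None of the 6 TIMM8, TIMM9, TIMM10 and TIMM13 genes, which encode chaperones of the intermembrane space, was in the 2 tables. Neither were TIMM44, TIMM21, TIMM29 and TIMM23B.

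Of 10 TOMM genes 3 were listed (30.0%) and of 15 TIMM genes 5 (33.3%), beside 37.9% of all annotated protein-coding genes. TOMM40, the outer-membrane pore, had a log2 fold change of 0.14 (q = 0.00292) and its small partner TOMM5 one of 0.22 (q = 0.000456) by the authors' deposited table. TOMM34, a cytosolic co-chaperone despite its name, had one of -0.34 (q = 1.69e-12) by the authors' deposited table. The receptors TOMM20, TOMM22 and TOMM70 and the barrel-assembly gene SAMM50 were in neither table. Among the channels, therefore, the TIM23 complex had listed genes at 1.29, 0.33, 0.24 and -1.45 on the log2 scale, against 0.22 and 0.14 for the subunits of the TOM pore, by the authors' deposited table.

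The promoter windows of TIMM50, TIMM17A and TIMM17B are printed because these genes show the widest divergence within 1 complex. The windows run from 250 bases before to 50 bases after the RefSeq start (GRCh38.p14), 5′ to 3′ on the gene's strand. Only 1 start per gene is printed, though some members have more, with 64 windows for 52 members. The annotated TIMM17B gene runs to position 48898143, so its whole printed window lies within the gene. Capitals mark the word AAGATGGCG in TIMM50, and in the TIMM17 paralogs their longest shared run, of 14 bases. The run begins 25 bases into the TIMM17A transcript and 20 bases into that of TIMM17B. It starts with the letters ATG, so it may be coding sequence and is not read as a promoter feature.
TIMM50, chr19:39480588-39480887, plus strand: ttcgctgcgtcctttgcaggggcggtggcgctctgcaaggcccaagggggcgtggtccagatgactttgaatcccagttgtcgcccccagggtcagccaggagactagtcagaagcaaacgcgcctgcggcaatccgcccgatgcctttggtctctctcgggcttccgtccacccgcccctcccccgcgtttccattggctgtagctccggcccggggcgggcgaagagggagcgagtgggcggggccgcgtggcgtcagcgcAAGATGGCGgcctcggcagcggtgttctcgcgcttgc
TIMM17A, chr1:201955253-201955552, plus strand: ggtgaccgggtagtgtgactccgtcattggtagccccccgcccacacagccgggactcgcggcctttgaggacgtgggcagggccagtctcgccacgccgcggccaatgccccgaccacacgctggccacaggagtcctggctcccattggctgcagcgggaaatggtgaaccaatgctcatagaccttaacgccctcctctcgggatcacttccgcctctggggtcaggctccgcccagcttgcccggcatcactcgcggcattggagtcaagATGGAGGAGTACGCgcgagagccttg
TIMM17B, chrX:48897719-48898018, minus strand: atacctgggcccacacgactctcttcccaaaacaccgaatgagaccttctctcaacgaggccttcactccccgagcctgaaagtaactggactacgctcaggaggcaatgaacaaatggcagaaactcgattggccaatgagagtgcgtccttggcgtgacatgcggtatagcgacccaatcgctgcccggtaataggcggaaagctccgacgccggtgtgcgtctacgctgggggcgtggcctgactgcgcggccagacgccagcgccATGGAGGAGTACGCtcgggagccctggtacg
TIMM17B overlaps the gene PQBP1 by 214 bases, and reads from the overlap cannot be told apart unless strand was used. PQBP1 was in neither table.

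**Figure D2:**
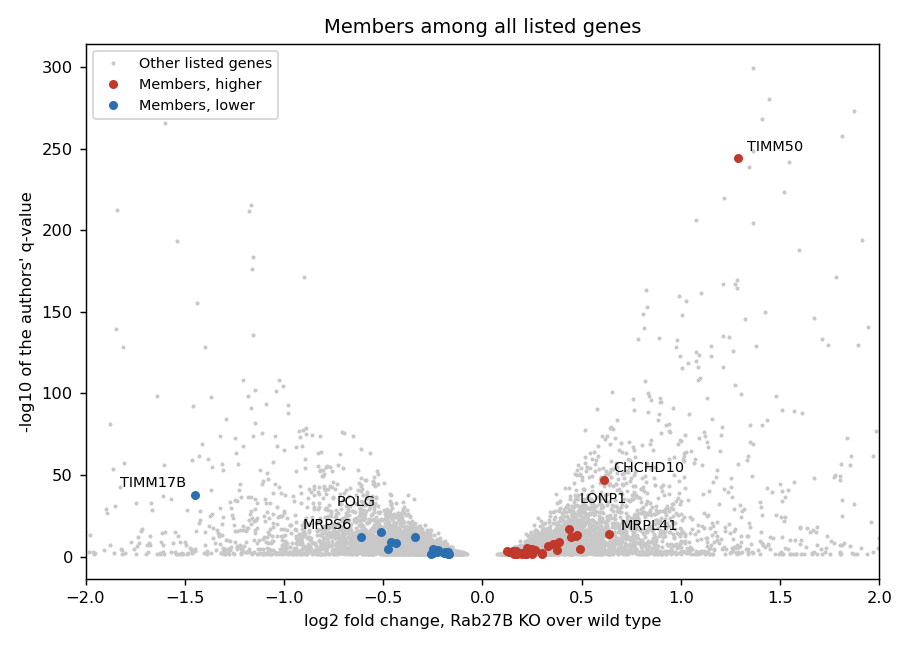
Log2 fold change (x axis) and -log10 of the authors' q-value (y axis) of the members, red for higher and blue for lower, over 7282 other listed genes in grey; 325 others lie outside the x axis and 17 with a q-value of 0 are not drawn. Most members have small changes, while TIMM50 stands high among the rises and TIMM17B far out among the falls.

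The 12 paralog pairs examined did not include TIMM23 and TIMM23B. Of these 12 pairs, TIMM17A and TIMM17B were the only pair with both genes listed, and 6 pairs had 1 gene listed. With 37.9% of all protein-coding genes listed, few pairs would have both, so nothing is read from this count. MFN2 was listed without MFN1, CHCHD10 without CHCHD2, TOMM40 without TOMM40L and the prohibitin gene PHB without PHB2. MRPS18A was listed without MRPS18B and without MRPS18C, so it stands in more than 1 of the 6 pairs. A gene missing from the tables is not shown to be unchanged, and the difference within these pairs was not tested.

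Among the genes of mitochondrial shape, the listed changes were small. MFN2, which fuses outer membranes, and DNM1L, the GTPase that divides mitochondria, had log2 fold changes of 0.15 (q = 0.000621) and 0.16 (q = 0.00455) by the authors' deposited table. OPA1, which fuses inner membranes and shapes cristae, had a log2 fold change of -0.25 (q = 1.02e-04) by the authors' deposited table. Thus 1 fusion gene was higher and 1 lower. The fission receptors MFF and FIS1 were in neither table. CHCHD10, a small protein of the intermembrane space linked to cristae, was 1.53-fold higher (q = 7.58e-48) by the authors' deposited table, the second-smallest q-value of all members after TIMM50. CHCHD5 was at a log2 fold change of 0.22 (q = 0.0436) and PHB, an inner-membrane scaffold, at 0.12 (q = 0.000504) by the authors' deposited table. PHB has 21 RefSeq pseudogenes of its name, and reads could be shared with them.

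All 3 matrix protease genes were listed, and the subunits of the ClpXP protease differed in direction. LONP1, which degrades oxidised and unassembled matrix proteins, was 1.35-fold higher (q = 6.45e-18) by the authors' deposited table. CLPP, the proteolytic barrel, was 1.19-fold higher (q = 1.35e-05), whereas CLPX, the unfoldase that feeds it, was 1.38-fold lower (q = 2.22e-09) by the authors' deposited table. Of the genes that keep mitochondrial DNA, TFAM, which packages it, was 1.35-fold (q = 6.76e-09) and POLG, its polymerase, 1.42-fold lower (q = 5.12e-16) by the authors' deposited table. POLG2, the accessory subunit, was in neither table.

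Other genes of the same pathways were counted in 7 lists, and no difference between lists was tested. Beside the numbers listed stands the 37.9% of all annotated protein-coding genes that were listed. Beside the medians stands the 0.12 of all listed genes. Of 25 factors that build the mitochondrial ribosome 15 were listed, 2 higher and 13 lower, with a median log2 fold change of -0.30. That compares with 26 higher and 12 lower among the 38 listed ribosomal genes by symbol, and with 50.7% higher among all listed genes. The GTPase gene NOA1 was at a log2 fold change of -0.46 (q = 4.30e-13) and RPUSD4, an RNA pseudouridine synthase, at -0.45 (q = 1.91e-09) by the authors' deposited table. The 2 higher assembly genes by the authors' deposited table were C1QBP at a log2 fold change of 0.18 (q = 4.07e-06) and TFB1M, a methyltransferase of the small ribosomal RNA, at 0.34 (q = 0.000571).

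Of 18 translation factors 11 were listed, 8 higher and 3 lower, or 72.7% higher, beside 50.7% of all listed genes. The elongation factor gene TUFM was at a log2 fold change of 0.18 (q = 5.70e-07) and the release factor gene MTRF1L at 0.33 (q = 8.21e-07) by the authors' deposited table. GUF1, a ribosome-bound GTPase, was at -0.75 (q = 8.65e-21) and the initiation factor gene MTIF2 at -0.22 (q = 0.0183) on the log2 scale of the authors' deposited table.

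Of 26 genes of mitochondrial DNA and its transcription 11 were listed, 2 higher and 9 lower, with a median log2 fold change of -0.23. Thus 18.2% were higher, beside 50.7% of all listed genes. The helicase gene TWNK was at -0.45 (q = 8.61e-16) and TBRG4, which acts on mitochondrial RNA, at -0.27 (q = 2.55e-07), against 0.16 (q = 0.00358) for the RNA polymerase gene POLRMT and 0.25 (q = 0.00442) for FASTKD5, all log2 values of the authors' deposited table. TWNK lies next to MRPL43, which had a log2 fold change of 0.19 (q = 0.00344) by the authors' deposited table, so these neighbours differed in direction.

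Of 12 regulators of mitochondrial biogenesis 7 were listed, 2 higher and 5 lower, or 28.6% higher, beside 50.7% of all listed genes. MYC and the coactivator gene PPRC1 had log2 fold changes of -0.53 (q = 1.68e-45) and -0.40 (q = 1.95e-23) by the authors' deposited table. The nuclear receptor gene ESRRA and the coactivator gene PPARGC1B had log2 fold changes of 0.53 (q = 1.23e-15) and 0.39 (q = 0.000726) by the authors' deposited table.

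Import motor and processing genes had 12 of 23 listed, 7 higher and 5 lower, or 58.3% higher, beside 50.7% of all listed genes. MTX1, of the outer membrane, and the matrix chaperone HSPA9 had log2 fold changes of 0.37 (q = 9.24e-08) and 0.19 (q = 8.78e-06), against -0.61 (q = 5.07e-08) for the motor co-chaperone DNAJC15 and -0.38 (q = 5.28e-05) for the peptidase gene MIPEP, by the authors' deposited table. Further genes of fission, fusion and cristae had 12 of 31 listed, 8 higher and 4 lower, or 66.7% higher, beside the same 50.7%. MTFR1, a fission regulator, and MICOS13, of the cristae junction, had log2 fold changes of 0.35 (q = 7.60e-08) and 0.40 (q = 6.91e-06), against -0.35 (q = 3.49e-08) for the transport adaptor gene TRAK1 and -0.17 (q = 0.00428) for the protease gene AFG3L2, by the authors' deposited table.

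**Figure D3:**
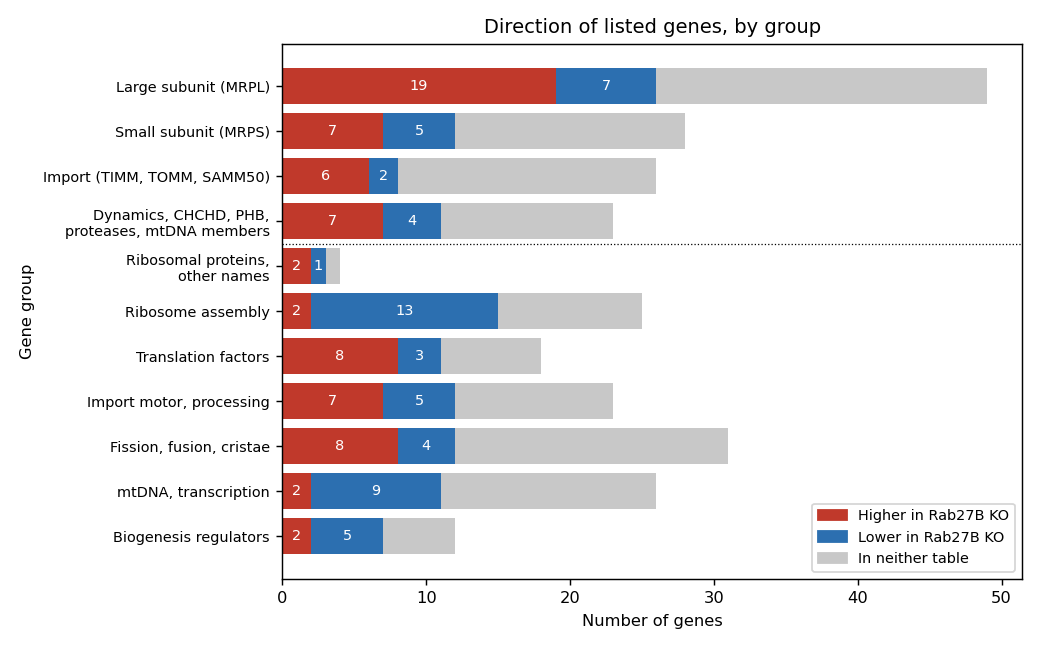
Number of genes (x axis) higher, lower or in neither table for each group (y axis), with members above the dotted line and the other pathway lists below it. Large-subunit genes were 19 higher and 7 lower, and ribosome assembly genes 2 higher and 13 lower.

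Direction was also counted by chromosome. Chromosomes 4, 7, 13 and 15 were counted apart because an earlier account of these data gave a lean to lower there. Their lean is therefore not an independent result. Of the 7 listed members on chromosomes 4, 7, 13 and 15, MRPS33 was higher and the other 6 lower, and of all listed protein-coding genes there 22.7% were higher. On the other chromosomes 38 members were higher and 12 lower, or 76.0% higher, beside 55.4% of all listed protein-coding genes. All 7 listed members on chromosome 19 were higher, among them TIMM50, LONP1 and MRPL34, beside 58.3% of all listed genes there. Of 6 listed members on chromosome 17, 5 were higher and 1 lower, beside 55.3% higher among all listed genes there. All 3 on chromosome 15, POLG, CLPX and MRPL46, were lower, beside 19.7% higher among all listed genes there. Chromosomes 15, 17 and 19 were the only ones counted singly, and no rule set beforehand chose them. Chromosome 2, not counted singly, held members of both directions. There MRPL33, MRPL53, MRPS5 and CHCHD5 were higher, and MRPL30 and MRPS9 lower. Without chromosomes 4, 7, 13 and 15 the assembly factors still counted 2 higher and 8 lower. The genes of mitochondrial DNA and its transcription then counted 2 higher and 6 lower. The part of chromosome in the members' directions was not tested.

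Members were also set beside their neighbours, the other protein-coding genes starting within 500 kb of a member's start. Over the 55 members with a listed neighbour, 31 shared the sign of their neighbours' median and 24 did not. Of 39 higher members 24 shared it, and of 16 lower members 7 did. Summed over the members, the listed neighbours counted 271 higher and 203 lower. Neighbours thus leaned higher in general, and nothing is read from these counts about the lower members. CLPX had 11 listed neighbours, 1 higher and 10 lower, with a median log2 fold change of -0.73 against -0.46 for CLPX itself by the authors' deposited table. POLG had 5 listed neighbours, 4 of them lower, with a median of -0.60 against -0.51 for POLG by the authors' deposited table. FANCI, which overlaps POLG by 940 bases, was also at a log2 fold change of -0.60 (q = 4.15e-32) by the authors' deposited table. MRPS31 on chromosome 13 had 4 listed neighbours, all lower. TIMM17B was unlike its surroundings: 13 of its 14 listed neighbours were higher, with a median of 0.42 against -1.45 for TIMM17B by the authors' deposited table. MRPS6 and TFAM also stood below neighbours whose medians were 0.33 and 0.06, over 3 and 2 listed genes. For TIMM50, 8 of 11 listed neighbours were higher, with a median of 0.34 against its 1.29 by the authors' deposited table.

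**Figure D4:**
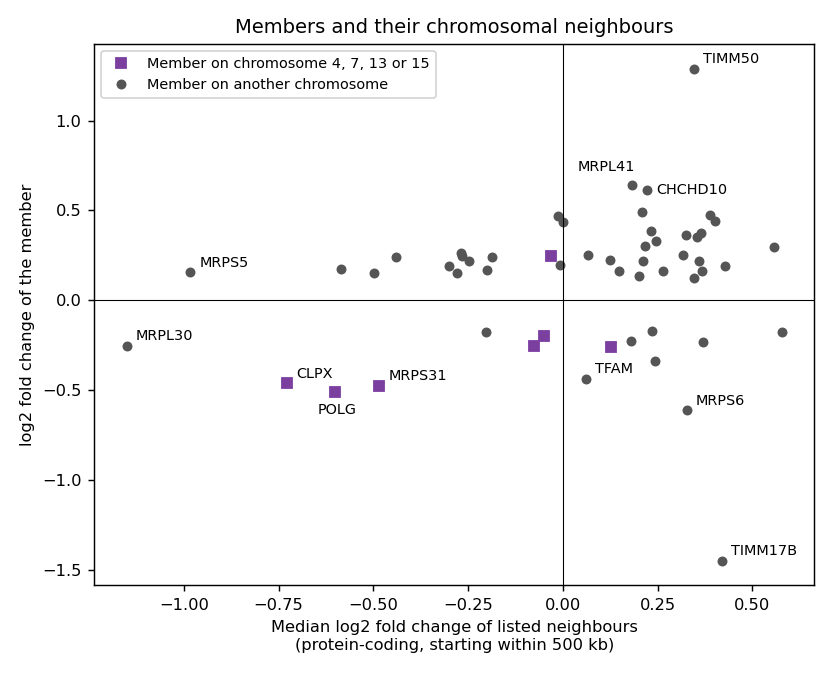
Median log2 fold change of the listed protein-coding neighbours within 500 kb (x axis) and log2 fold change of the member (y axis) for 55 members, with squares for chromosomes 4, 7, 13 and 15. CLPX, POLG and MRPS31 lie with their lower neighbours, while TIMM17B lies at -1.45 among neighbours with a median of 0.42.

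Across all listed genes, transcript length moved with direction. Members were short: the median of their longest protein-coding transcript was 1588 bases, against 3521 bases for all listed protein-coding genes. Among all listed genes, higher ones had a median length of 2809 bases and lower ones 4287 bases. Within the members this order was not kept throughout. The 39 higher members had a median of 1588 bases and the 18 lower ones 1552.5 bases. In the large subunit the medians were 1262 bases for higher and 1490 bases for lower genes, and in the small subunit 1652 and 1462 bases. Over both subunits they were 1324.5 and 1476 bases. Among the 12 shortest ribosomal genes, of 518 to 1086 bases, 9 were higher, and of all 353 listed genes in that range 82.2% were higher. In the next 12, of 1162 to 1588 bases, 7 were higher, beside 72.4% of all listed genes in that range. In the longest 14, of 1605 to 5621 bases, 10 were higher, beside 52.8%. The median log2 fold changes of the ribosomal genes in these ranges were 0.17, 0.19 and 0.21, from short to long. Over the whole range 26 of 38 ribosomal genes were higher, beside 56.4% of the 5866 listed genes of these lengths. Of those 5866 genes 4964 were of 1605 to 5621 bases, against 14 of the 38 ribosomal genes. The 56.4% is therefore not matched on length, and no excess over genes of like length is read from it. The part of length in the ribosomal genes' directions was not tested. The assembly factors, with a median of 3044 bases, were longer than the ribosomal genes, and the part of length in that contrast was not tested.

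**Figure D5:**
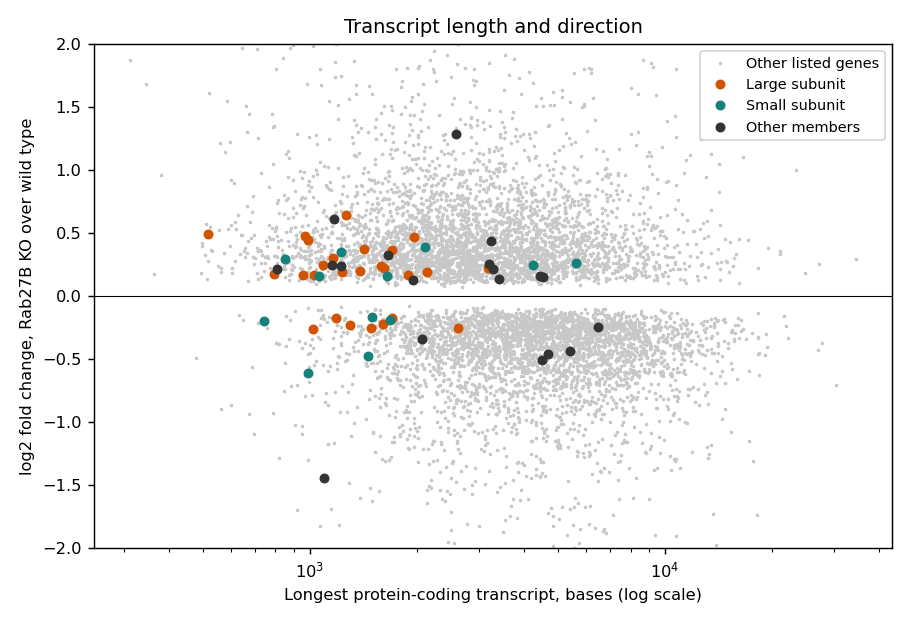
Longest protein-coding transcript in bases on a log axis (x) and log2 fold change (y) for large-subunit, small-subunit and other members, over 7227 other listed genes in grey, with 326 others outside the y axis. Short listed genes lie mostly above 0, and the ribosomal members lie among them.

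Promoter words known for nuclear mitochondrial genes were then searched on both strands of the same 300-base windows. RefSeq windows were matched for 52 of the 57 members, and CLPP, MRPL13, MRPL2, MRPS28 and TOMM5 were not used here. The NRF1 word, 10 letters long, was in 14 of the 52 members, or 26.9%, beside 12.4% of all listed genes and 6.98% of all genes with a window. Of these 14 members 7 were higher and 7 lower. The YY1 word AAGATGGCG was in 9 members, or 17.3%, beside 4.62% of all listed genes and 2.14% of all genes with a window, and 6 of the 9 were higher. The ETS word CCGGAAGT was in 4 members, or 7.69%, beside 9.08% of all listed genes. The end of the YY1 word can overlap the start of the NRF1 word; MRPL36 held both, at separate places. A match is a description of letters, not a binding site.

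Windows with the YY1 word are printed because its place was alike in them. In 8 of 9 it began 7 to 36 bases after the start, and in MRPL36 it stood on the other strand before it. The word holds the letters ATG, so after the start it may lie over coding sequence. Capitals mark the word or its reverse complement, on GRCh38.p14. The annotated MRPL36 gene runs to position 1801434, so its printed window lies within the gene.
TIMM50, chr19:39480841-39480869, plus strand: gcgtcagcgcAAGATGGCGgcctcggcag
MRPS10, chr6:42217834-42217862, minus strand: cgggaccggcAAGATGGCGgcgcggacag
MRPL22, chr5:154941098-154941122, plus strand: gggagggcgaAAGATGGCGgcggca
MRPL36, chr5:1799855-1799883, minus strand: ccccccccgcCGCCATCTTccttcctggc
MRPL38, chr17:75904860-75904888, minus strand: ggccggagggAAGATGGCGgcgccctggt
MRPS18A, chr6:43687764-43687792, minus strand: taggtttttgAAGATGGCGgccctcaagg
MRPS30, chr5:44808950-44808978, plus strand: atcgcgggcaAAGATGGCGgcggccaggt
MRPS24, chr7:43869480-43869508, minus strand: cgcttggcccAAGATGGCGgcctccgtgt
MRPL46, chr15:88467362-88467390, minus strand: gggagaacgaAAGATGGCGgcgcccgtaa
The first 6 of these genes were higher and the last 3 lower.

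The NRF1 word is shown for 3 higher and 3 lower members, whose log2 fold changes by the authors' deposited table were 0.48, 0.47, 0.44, -0.25, -0.43 and -0.46 for MRPL34, MRPL17, LONP1, OPA1, TFAM and CLPX. No rule set beforehand chose the members shown. The lower ones are not the 3 lowest with the word. TOMM34 at -0.338 and MRPL30 at -0.251 lay below OPA1 at -0.248 on the log2 scale of the authors' deposited table. Capitals mark the word, or in TFAM, where it lies on the other strand, its reverse complement. The annotated MRPL34 gene begins at position 17292573, so its printed window lies within the gene.
MRPL34, chr19:17305627-17305656, plus strand: aatgccttgtGCGCACGCGCttgctcagaa
MRPL17, chr11:6683402-6683431, minus strand: aggctctgatGCGCATGCGCaaacacgttc
LONP1, chr19:5720633-5720662, minus strand: ctgaagccctGCGCATGCGCatcaatgagt
OPA1, chr3:193593104-193593133, plus strand: gacgcactgtGCGCATGCGCtggtcctccg
TFAM, chr10:58385337-58385366, plus strand: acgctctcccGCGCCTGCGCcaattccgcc
CLPX, chr15:65185413-65185442, minus strand: cgggcctaggGCGCAGGCGCgcgcaagctc
LONP1, MRPL17 and OPA1 carry the same 10 letters on the gene's strand, OPA1 being lower and the other two higher.

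Some values are uncertain because genes overlap or have copies. Of the 57 members 16 overlap another protein-coding gene in RefSeq and 10 an lncRNA gene, 24 in all. MRPL34 overlaps ABHD8 by 10853 bases, and ABHD8 had a log2 fold change of 1.53 (q = 4.87e-25) by the authors' deposited table. MRPS6 shares its locus with SLC5A3, which was in neither table. MRPS28 overlaps TPD52-MRPS28 by 111543 bases, and that gene was in neither table. TPD52, the only listed neighbour of MRPS28, had a log2 fold change of 0.56 (q = 1.94e-30) by the authors' deposited table. For 24 members RefSeq lists at least 1 pseudogene of the same name.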

How the data were processed

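RNA sequencing compared 3 HCT116 cultures labelled Rab27B KO with 3 wild-type cultures, grouped by their titles. Per the submitters' processing notes, HISAT, Bowtie2 and build GRCh38 were used, while their roles, the counting, strand setting, scaling and test were not given in the sources used here. Per the file headers, the deposited values are a log2 fold change, a linear ratio (fold) in the table of higher genes, and the q-value of the authors' own test, with every q-value below 0.05. How many genes were tested and the depth per culture are unknown. For 17 genes the deposited q-value is 0.

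No test was added: the authors' q-value is the call, and groups are described by counts and medians. The members, lists, promoter words and neighbour window were chosen with earlier results of these data known. Gene IDs were matched to RefSeq (GRCh38.p14), 7656 of 7681 and all 57 members. Transcript lengths are from GENCODE release 29. Members named in full were the 4 highest and 4 lowest log2 values per role and the smallest q-value, and in each list the 2 smallest q-values per direction. Genes named as overlapping or neighbouring, and the subunit by place, were picked once values had been seen. No rule set beforehand chose the members shown with the NRF1 word, or the single chromosomes 15, 17 and 19. The member rule and counting were tested on simulated data. Python 3.11.15, pandas 2.3.3, numpy 2.4.6 and matplotlib 3.10.9 were used.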

Additional observations from a re-analysis of the deposited data

How the results depend on the processing

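Counts by direction were repeated under other choices. At a q-value below 0.01 the members numbered 30 higher and 14 lower, the large subunit 15 and 4, and the small subunit 3 and 4, so the small subunit's lean turned round. With an absolute log2 change of at least 0.5, there were 3 members higher and 3 lower: 1 and 0 in the large subunit, 0 and 1 in the small subunit, 1 and 1 among import genes, and 1 and 1 among dynamics, protease and mtDNA genes. With at least 1, there was 1 member higher and 1 lower, both import genes, and the other groups had 0 and 0. Without chromosomes 4, 7, 13 and 15 the members numbered 38 higher and 12 lower, the small subunit 6 and 3, and the dynamics, protease and mtDNA genes 7 and 2. Of 60 alternative counts, 36 stayed within 1.5 times the reported count, among them all those by the reference symbol of the gene ID, with GADD45GIP1 added to the large subunit, and with small-subunit proteins of other names added. The same held for 2 choices made after seeing the data, subunits counted by place and members without overlapping protein-coding genes, which left the members at 28 higher and 13 lower. No paired analysis was possible because the tables hold no value per culture, and for the same reason no replicate could be left out and no other normalization tried. Read depth is unknown, so a gene in neither table cannot be called unchanged.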
